A study of Mus musculus with 8 samples.

Results

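The ligands of the EGF family and their ErbB receptors were followed in 8 C26 colon carcinomas grown under the skin of mice. The family held 10 genes, the 6 ligands Areg, Ereg, Btc, Hbegf, Tgfa and Epgn and the 4 receptors Egfr, Erbb2, Erbb3 and Erbb4, and all 10 were found by symbol among the 27179 genes of the table. The family was chosen from these same tumors because Areg and Egfr were strongly lower in one group, so the differences of its members between the groups are given as a description, without a p-value. C26 is a colon carcinoma line of Balb/c origin, and cxC26 denotes its cachectic form. The first group held 4 tumors from cxC26 scr cells, which carried a scrambled guide RNA as the CRISPR/Cas9 control. The second held 4 tumors from cxC26 IL-6 KO s1 cells, 1 subclone grown from a pool of cells whose Il6 gene was targeted by CRISPR/Cas9. The study used male mice at 13 to 18 weeks of age and grew both lines in CD2F1 mice, in some experiments also in Balb/c or NOD-SCID mice. By its methods, mice were euthanized once they had lost more than 15% of body weight. Its account of the sequencing names neither the strain nor the stage of these tumors. The number of cells implanted and the day of collection are not given for the sequenced tumors. In other experiments of the study 10 times as many cxC26 IL-6 KO s1 as cxC26 scr cells were implanted, and the terminal day of flow cytometry was 13 for cxC26 and 30 for cxC26 IL-6 KO s1. Since the knockout is 1 clone, its clonal origin, the time in the host and the loss of Il6 cannot be told apart.

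The ligands are made as membrane proteins, and metalloproteinases of the ADAM family release their EGF-like domain from the cell surface. Areg (amphiregulin) and Tgfa bind EGFR, whereas Hbegf, Btc (betacellulin) and Ereg (epiregulin) bind both EGFR and ERBB4. ERBB2 binds no known ligand and serves as the partner of the other receptors, and ERBB3 depends on its partner for kinase activity. Activated receptors signal through RAS and ERK and through PI3K and AKT. In the intestine these ligands are known for epithelial growth and repair, and in colorectal cancer AREG and EREG are read as markers of EGFR pathway activity.

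The deposited values were log2 CPM, the log2 of gene reads relative to an effective library total, and whole read counts were recovered from them. This effective total was 96.2% to 101.9% of the reads on genes. Reads on genes numbered 14158989 to 17048062 per tumor, and the totals of the groups overlapped. For Il6, the targeted gene, cxC26 scr tumors gave 356, 326, 376 and 438 reads, against 64, 56, 86 and 59 for cxC26 IL-6 KO s1, a log2 difference of -2.45 (standard error 0.165). The Il6 reads of the groups did not overlap, and some reads remained in every knockout tumor. Of the epithelial markers of the labelled tumor, Krt20 stood at 10.20 ± 0.107 log2 CPM (SD, n = 4) in cxC26 scr and 10.42 ± 0.0510 in cxC26 IL-6 KO s1, whereas Epcam, Krt8, Krt19 and Vil1 lay below the filter on low expression. The labels do not name the mouse behind each tumor, so p-values and standard errors measure the spread between these libraries only.

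The promoters of Areg, Btc and Egfr are shown because these members had the largest decreases. Each is printed 5′ to 3′ on the strand of the gene, from 250 bases before the start to 50 after it, as RefSeq gives it for GRCm38.p6. Capitals mark matches, on either strand, to the letters searched, which were the cyclic AMP response element (CRE) TGACGTCA, its core TGACG, AP-1 TGANTCA, STAT TTCNNNGAA, TEAD GGAATG and SP1 GGGCGG. The windows lie at chr5:91139349-91139648 on the plus strand for Areg, chr5:91402945-91403244 on the minus strand for Btc and chr11:16751953-16752252 on the plus strand for Egfr.
Areg: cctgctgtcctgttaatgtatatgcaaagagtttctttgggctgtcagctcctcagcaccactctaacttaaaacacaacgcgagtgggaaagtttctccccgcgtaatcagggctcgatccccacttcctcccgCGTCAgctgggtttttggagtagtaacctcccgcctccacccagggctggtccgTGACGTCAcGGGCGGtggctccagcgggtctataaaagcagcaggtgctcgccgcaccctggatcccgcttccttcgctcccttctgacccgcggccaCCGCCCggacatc
Btc: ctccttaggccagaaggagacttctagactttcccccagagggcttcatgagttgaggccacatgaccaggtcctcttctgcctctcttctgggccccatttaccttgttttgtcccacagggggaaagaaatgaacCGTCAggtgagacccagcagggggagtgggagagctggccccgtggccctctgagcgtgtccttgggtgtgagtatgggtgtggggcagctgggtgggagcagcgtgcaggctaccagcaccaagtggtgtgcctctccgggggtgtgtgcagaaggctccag
Egfr: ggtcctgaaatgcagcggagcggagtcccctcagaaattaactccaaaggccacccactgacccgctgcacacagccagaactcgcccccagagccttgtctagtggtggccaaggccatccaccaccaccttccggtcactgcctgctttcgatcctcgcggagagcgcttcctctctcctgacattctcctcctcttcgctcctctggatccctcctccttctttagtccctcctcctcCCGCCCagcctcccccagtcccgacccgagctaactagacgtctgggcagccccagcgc
The Areg window held the whole CRE once, at -61 from the start, and 1.79% of the 32851 RefSeq promoter windows of the same length held it. The core TGACG, found in 20.8% of all windows, matched the Areg window at -115 and on both strands within the CRE, at -61 and -58, and it matched the Btc window at -113. SP1 letters, found in 35.7% of all windows, matched at -52 and 38 in Areg and at -9 in Egfr. Neither the STAT nor the AP-1 letters, found in 8.30% and 7.81% of all windows, were in any of the 7 member windows read, those of Areg, Btc, Egfr, Tgfa, Epgn, Erbb2 and Erbb4. A match of letters is a description of the sequence and not a measured binding site.

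Read against the whole table, the family spanned both directions. Of the 10 members, 9 had reads in at least 1 tumor and 7 passed the filter of at least 1 CPM in at least 4 tumors. In the limma fit over all 13262 genes that passed, 39.8% of genes had an adjusted p-value under 0.05, 20.7% as lower and 19.1% as higher in cxC26 IL-6 KO s1. By that rule 5 of the 7 members counted as lower (Areg, Egfr, Btc, Erbb2 and Ereg), 1 as higher (Hbegf) and 1 as neither (Tgfa). The tumors of the groups did not overlap for 5 members, lower for Areg, Egfr, Btc and Erbb2 and higher for Hbegf, and 37.1% of all tested genes did not overlap. The members were chosen on this contrast, so nothing is read from these counts. The median log2 difference was -0.75 over the 7 members and -0.0029 over all tested genes.

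**Figure D1:**
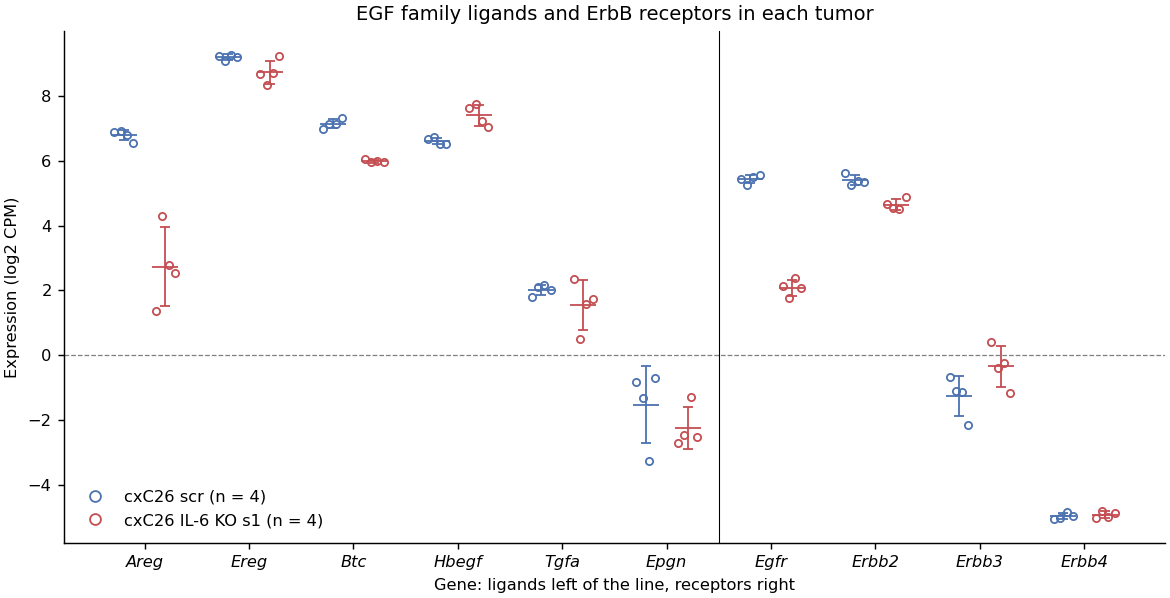
Expression of the 10 members in each tumor in log2 CPM, with ligands left of the vertical line and receptors right of it. Circles are tumors, horizontal bars the mean of 4 tumors and error bars the SD. Areg and Egfr show the widest gaps between the groups, Hbegf lies higher in cxC26 IL-6 KO s1, and Erbb4 sits at the value of a gene without reads.

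Areg, the ligand of largest difference, encodes amphiregulin and was abundant in every control tumor. It had 1963, 1936, 1565 and 1453 reads in cxC26 scr and 41, 270, 108 and 83 reads in cxC26 IL-6 KO s1. On the log2 CPM scale these were 6.88, 6.90, 6.78 and 6.56 against 1.35, 4.29, 2.78 and 2.53. The control tumors lay close together, whereas the knockout tumors were spread over almost 3 log2 units, with tumor 1 lowest and tumor 2 highest. The log2 difference was -4.04 (standard error 0.444), so that the knockout level was 6.06% of the control level, and Areg ranked 23 of 13262 from the most lowered gene. Without knockout tumor 2 the difference was -4.56, and without knockout tumor 1 it was -3.58. In bulk tumors, fewer cells of a type and less RNA per cell cannot be told apart.

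Btc encodes betacellulin and was lower in every knockout tumor. It had 2090, 2289, 1989 and 2449 reads in cxC26 scr and 1069, 857, 1000 and 898 reads in cxC26 IL-6 KO s1. Its knockout values lay within 0.0412 log2 units (SD), the tightest of all members, around 5.98 log2 CPM against 7.14 ± 0.141 in the controls. The log2 difference was -1.16 (standard error 0.0856), or 44.9% of the control level.

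Ereg encodes epiregulin and had the most reads of the family in both groups. It had 10015, 8694, 8769 and 9036 reads in cxC26 scr and 6573, 4505, 6559 and 8620 reads in cxC26 IL-6 KO s1. Knockout tumor 4, at 9.22 log2 CPM, lay inside the control range of 9.07 to 9.27, and the other 3 lay below it, at 8.66, 8.35 and 8.70. The log2 difference was -0.46 (standard error 0.152). Ereg no longer passed the threshold without cxC26 scr tumor 1, 3 or 4, without cxC26 IL-6 KO s1 tumor 1, 2 or 3, without tumor 1 of both groups, or with no filter on low expression. Over all 16 alternatives its difference lay between -0.62 and -0.33.

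Hbegf, heparin-binding EGF, was the member that moved the other way. It had 1699, 1706, 1315 and 1402 reads in cxC26 scr and 3177, 2957, 2383 and 1910 reads in cxC26 IL-6 KO s1. In log2 CPM the controls stood at 6.67, 6.72, 6.53 and 6.51 and the knockout tumors at 7.61, 7.74, 7.24 and 7.04. Every knockout tumor lay above every control, with tumors 1 and 2 higher than tumors 3 and 4. The log2 difference was 0.80 (standard error 0.138), or 1.74 times the control level, and Hbegf ranked 1225 from the most raised gene.

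Tgfa and Epgn were low in all tumors. Tgfa encodes transforming growth factor alpha and had 58, 69, 63 and 61 reads in cxC26 scr and 83, 19, 47 and 48 reads in cxC26 IL-6 KO s1. The knockout tumors lay on both sides of the controls, and the log2 difference of -0.47 (standard error 0.332) did not pass the threshold. Epgn, which encodes epigen, had 9, 6, 1 and 9 reads against 2, 2, 6 and 2 reads and was not tested. No difference of Epgn was detectable at this depth.

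Egfr, the receptor that all 6 ligands can engage, was lower in the knockout tumors without the spread seen for Areg. It had 719, 622, 645 and 724 reads in cxC26 scr and 71, 47, 81 and 60 reads in cxC26 IL-6 KO s1. In log2 CPM these were 5.43, 5.27, 5.50 and 5.56 against 2.14, 1.78, 2.37 and 2.06. Both groups were narrow and lay far apart. The log2 difference was -3.35 (standard error 0.145), or 9.79% of the control level, and Egfr ranked 35 from the most lowered gene, among 54 genes lower by more than 3 log2 units.

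Erbb2, the partner receptor without a known ligand, had 820, 617, 591 and 627 reads in cxC26 scr and 412, 319, 359 and 430 reads in cxC26 IL-6 KO s1. All knockout tumors lay below all controls, and the log2 difference was -0.75 (standard error 0.117), or 59.4% of the control level. Erbb3 had 10, 7, 6 and 3 reads against 21, 10, 13 and 6 reads and was not tested, and its groups overlapped. Erbb4 had 0 reads in all 8 tumors, which allows a level of up to 0.180 to 0.217 CPM by a limit of 3 reads per tumor. These limits cover counting error only.

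Levels of different genes were compared as RPKM, the CPM per kilobase of the longest GENCODE M21 transcript. In cxC26 scr the ligands stood in the order Ereg (142 ± 8.27 RPKM, SD, n = 4), Areg (90.9 ± 9.43), Btc (35.1 ± 3.44), Hbegf (33.8 ± 2.43), Tgfa (0.891 ± 0.0923) and Epgn (0.222 ± 0.132). Btc, at 31.1 to 39.5 RPKM, and Hbegf, at 31.5 to 36.5, overlapped, while Ereg, Areg and Btc did not. In cxC26 IL-6 KO s1 the order was Ereg (105 ± 27.6 RPKM), Hbegf (59.9 ± 13.1), Btc (15.7 ± 0.454), Areg (7.12 ± 6.14), Tgfa (0.705 ± 0.339) and Epgn (0.112 ± 0.0699). Areg in knockout tumor 2, at 16.0 RPKM, reached into the Btc range of 15.4 to 16.3, and it was 2.08 to 5.64 RPKM in the other 3 tumors.

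The summed ligand level was 303 ± 7.84 RPKM in cxC26 scr and 189 ± 15.2 in cxC26 IL-6 KO s1, and its make-up differed. Areg held 29.99 ± 2.63% of the ligand sum in the controls and 3.82 ± 3.36% in the knockout tumors, where single tumors ranged from 1.12% to 8.70%. Hbegf held 11.2 ± 0.743% and 32.0 ± 8.10%, and Ereg 46.8 ± 2.56% and 55.4 ± 10.7%. The Ereg shares overlapped between the groups, and those of Areg and Hbegf did not. With the longest coding sequence as the length, Areg held 8.33% of the ligand sum in the controls, as the lowest of the 4 abundant ligands, and 0.941% in the knockout tumors.

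Erbb2 was the most abundant receptor per length, at 8.46 ± 0.945 RPKM in cxC26 scr and 5.03 ± 0.639 in cxC26 IL-6 KO s1. Egfr stood at 4.26 ± 0.365 and 0.417 ± 0.0704 RPKM, and Erbb3 at 0.0685 ± 0.0276 and 0.135 ± 0.0605. The ratio of Erbb2 to Egfr was 1.76 to 2.32 in the control tumors and 9.03 to 14.6 in the knockout tumors. By coding length Egfr held 51.4% of the receptor sum in the controls against 33.4% by transcript length, so which of Egfr and Erbb2 was the higher in the controls depended on the length used. In the knockout tumors Egfr held 7.54% by transcript length and 14.6% by coding length, and Erbb2 was the higher under both.

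**Figure D2:**
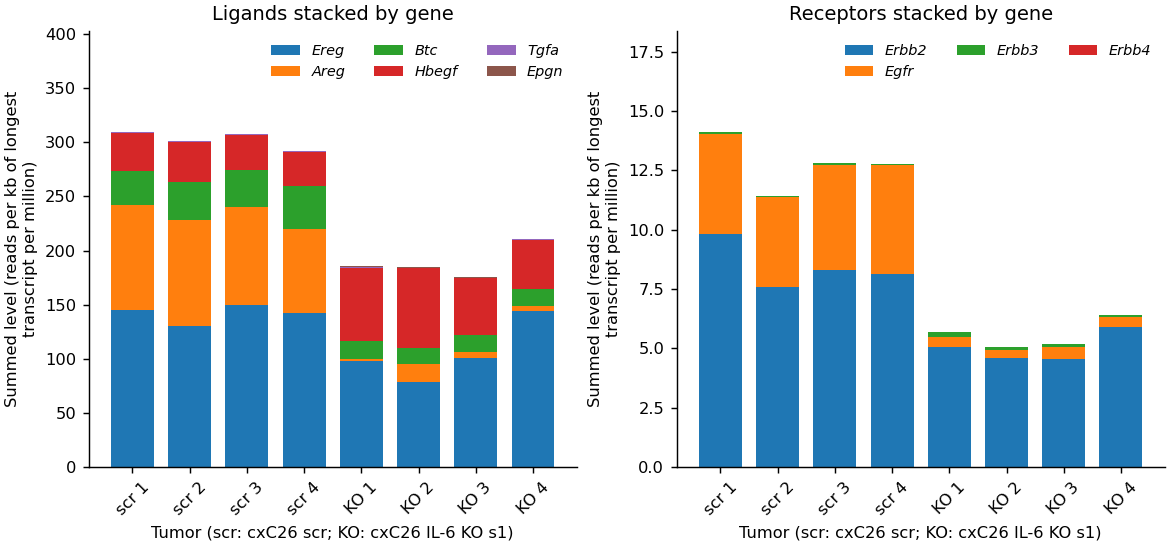
Level per length of each ligand (left) and receptor (right), stacked for each tumor, in CPM per kilobase of the longest transcript (RPKM). The ligand sum averaged 303 in cxC26 scr and 189 in cxC26 IL-6 KO s1, with less Areg and more Hbegf in the knockout tumors, and the receptor sum averaged 12.8 and 5.58, with less Egfr.

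The genes of 4 ligands are neighbours on mouse chromosome 5 of GRCm38, in the order Epgn (91027464 to 91035215), Ereg (91074622 to 91093646), Areg (91139599 to 91148432) and Btc (91357261 to 91402994, minus strand). Epgn, Ereg and Areg are on the plus strand, and, counted between lower coordinates, Ereg lies 65.0 kb below Areg and Btc 217.7 kb above it. The differences within this stretch were unequal, at -0.46 for Ereg, -4.04 for Areg and -1.16 for Btc on the log2 scale. Of the 7 genes tested within 500 kb of Areg, again between lower coordinates, 3 were called, each as lower. Over all tested genes 39.8% were called and 20.7% were lower. Besides Ereg and Btc the called gene was Mthfd2l, with a log2 difference of -0.49 (standard error 0.146, limma adjusted p = 0.0202). The chemokine genes of the stretch were not called, with log2 differences of 0.54 for Cxcl5, -0.33 for Ppbp, 0.20 for Pf4 and -0.17 for Cxcl1. The 43 other tested genes in the 10 Mb window that holds Areg had a median log2 difference of -0.25, against -0.24 for the 828 on chromosome 5. Both lay below the median of all tested genes, -0.0029.

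Egfr lies on chromosome 11, from 16752203 to 16918158 on the plus strand. Of the 8 genes tested within 500 kb of it by lower coordinate, 2 were called higher and 1 lower, beside 19.1% and 20.7% of all tested genes. Plek, which encodes the leukocyte and platelet protein pleckstrin, was higher by 0.89 on the log2 scale (standard error 0.163, limma adjusted p = 0.00132), and Cnrip1 by 0.87 (standard error 0.279, limma adjusted p = 0.0274). Fbxo48 was lower, by -0.62 on the log2 scale (standard error 0.182, limma adjusted p = 0.0178). Not called were Eldr at -0.78, Ppp3r1 at -0.22, Dnaaf10 at -0.21, Sec61g at -0.09 and Pno1 at -0.03. All 8 lay far from the -3.35 of Egfr, but Egfr was chosen for its fall, so nothing is read from this. The 14 other tested genes in its 10 Mb window had a median of -0.13, against -0.15 for chromosome 11.

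**Figure D3:**
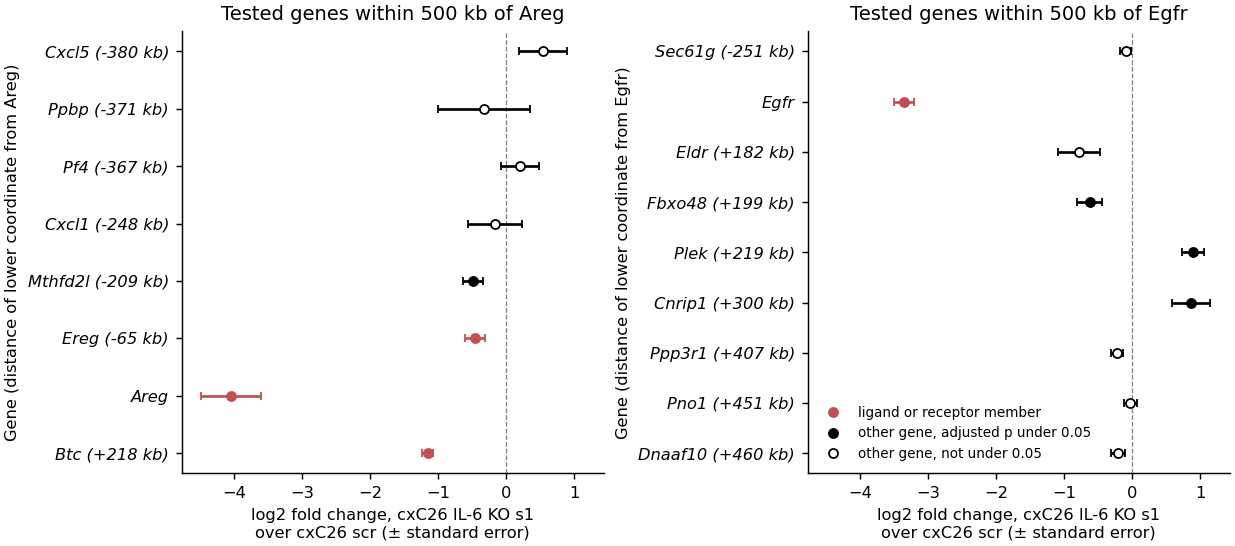
The log2 difference, cxC26 IL-6 KO s1 over cxC26 scr, of the tested genes within 500 kb of Areg (left) and Egfr (right), in chromosome order with the distance between lower coordinates. Points are the fitted difference, bars its standard error, and filled points passed an adjusted p of 0.05. Areg (-4.04) and Egfr (-3.35) were chosen for their falls, so nothing is read from their distance to the genes around them.

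Other members lie elsewhere. Erbb2 is on chromosome 11 from 98412470 to 98437716, Tgfa on chromosome 6 from 86195223 to 86275719, Erbb3 on chromosome 10 from 128567523 to 128589652 and Erbb4 on chromosome 1 from 68032186 to 69108059. Of 23 genes tested within 500 kb of Erbb2, 2 were called higher and 8 lower, beside 19.1% and 20.7% of all tested genes. Their median log2 difference was -0.20, against -0.15 for chromosome 11. Near Tgfa, 2 of 14 were called higher and 0 lower, with a median of -0.0056. Near Erbb3, itself not tested, 17 of 38 were called higher and 4 lower. Their median was 0.26, against 0.32 for chromosome 10. Some members overlap genes on the opposite strand, and the strand setting of the counting is not given in the sources used here. Egfros, antisense to Egfr, had 2, 2, 0 and 1 reads in cxC26 scr and 0 in cxC26 IL-6 KO s1. Mien1, opposite the end of Erbb2, had 316 to 436 reads in the controls and 364 to 437 in the knockout tumors, and its log2 difference of 0.19 was not called.

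The genes most like Areg and Egfr over the 8 tumors were sought among 9997 genes, by the root mean square difference in log2 CPM after centring each gene on its mean. Likest to Areg were Nkain1 (0.661), Lef1 (0.671) and Galnt18 (0.771). Nkain1 had 729, 616, 526 and 523 reads against 53, 112, 74 and 56, so that, as for Areg, knockout tumor 2 was the highest of its group. Likest to Egfr were Galnt18 (0.303), Il11 (0.332) and Nabp1 (0.362). Il11, a cytokine of the IL-6 family, had 8976, 4010, 4718 and 5379 reads against 455, 316, 438 and 450. The nearest genes lay closer to Egfr than any did to Areg, whose knockout tumors were spread more widely. Likeness over these tumors rests mostly on the gap between the groups.

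Other genes of the pathway were read from 5 lists of 69 genes, of which 66 were tested. Of these 8 (12.1%) were called higher and 21 (31.8%) lower, beside 19.1% and 20.7% of all tested genes. These lists, and the marker lists below, were chosen with earlier results of these data known. Their shares are therefore a description only. Of the remaining EGF family ligands 0 of 4 tested passed in limma, and 1, Nrg2, had an unadjusted p under 0.05. In this list 1 gene was called higher without cxC26 scr tumor 1 and without cxC26 IL-6 KO s1 tumor 3 or 4. Nrg2, a neuregulin, had a log2 difference of 0.52 (standard error 0.206, limma adjusted p = 0.0618), Egf 0.13, Nrg1 -0.11 and Nrg4 0.08, while Nrg3 had no reads. Egf itself was low, at 0.28 ± 0.279 log2 CPM in cxC26 scr and 0.40 ± 0.326 in cxC26 IL-6 KO s1.

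Genes of ligand shedding moved in both directions, 4 higher and 4 lower of 10 tested (80.0% called, beside 39.8% of all tested genes), with a median log2 difference of -0.0175. Adam19, a metalloproteinase that can shed neuregulins, fell from 5.09 ± 0.206 to 2.95 ± 0.0786 log2 CPM (limma adjusted p = 9.8e-07). Adam12 fell by 1.03 (limma adjusted p = 0.00101) and Adam8 rose by 0.94 (limma adjusted p = 0.00418) on the log2 scale. Rhbdf2, which encodes iRhom2, the escort of ADAM17, fell by 0.85 (limma adjusted p = 0.000522). Adam17, the main sheddase of Areg and Hbegf, was named after its values were seen. It stood at 6.74 ± 0.0876 and 6.71 ± 0.195 log2 CPM, with a log2 difference of -0.03 (limma adjusted p = 0.864). The remaining called genes, also named after their values were seen, were Adam15 (0.66), Adam10 (0.51) and Adam9 (0.41) as higher and Rhbdf1 (-0.27) as lower.

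Of 14 tested inhibitors and ubiquitin ligases of the receptors, 1 (7.14%) was higher and 6 (42.9%) lower, beside 19.1% and 20.7% of all tested genes, with a median log2 difference of -0.19. Lrig1, a transmembrane protein that restrains ErbB receptors, fell from 8.87 ± 0.157 to 7.90 ± 0.224 log2 CPM (limma adjusted p = 0.000115). Errfi1 (MIG6), a feedback inhibitor of EGFR, fell by 0.70 on the log2 scale (limma adjusted p = 0.000874), and Cbl, the ligase that marks EGFR for degradation, fell by 0.74 (limma adjusted p = 0.00457). Ptprj, a receptor phosphatase, rose by 0.54 (limma adjusted p = 0.0160), a call that was lost with no filter on low expression.

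Of 26 adaptors and transducers, 3 were higher, 6 lower and 17 not called (34.6% called, beside 39.8% of all tested genes), with a median log2 difference of -0.0085. Plcg1, a phospholipase bound by EGFR, fell by 0.92 (limma adjusted p = 3.4e-05), Pik3r1, the regulatory subunit of PI3K, by 0.79 (limma adjusted p = 0.000444) and Akt2 by 0.48 (limma adjusted p = 0.00212). Pik3cb, a catalytic subunit of PI3K, rose by 0.46 (limma adjusted p = 0.0192). The count of higher genes was 5 after quantile normalization and without tumor 1 of both groups, and 1 without cxC26 IL-6 KO s1 tumor 2.

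Of 12 genes known to be induced by ERK signaling, 5 (41.7%) were lower and 0 higher, beside 20.7% and 19.1% of all tested genes, with 1 higher at an unadjusted p under 0.05, and 7 did not pass the limma test, with a median log2 difference of -0.13. The ETS factor Etv4 fell from 7.62 ± 0.0690 to 6.80 ± 0.104 log2 CPM (limma adjusted p = 2.2e-05). Egr1 fell by 0.79 (limma adjusted p = 0.00219), the phosphatase gene Dusp4 by 0.78 (limma adjusted p = 0.000614) and the RAS pathway inhibitor Spred1 by 0.76 (limma adjusted p = 0.000173). Not called were Etv5 (0.29, the gene higher at an unadjusted p under 0.05), Fosl1 (0.11), Dusp6 (0.08) and Ccnd1 (-0.06). Dusp5 (-0.08), Phlda1 (-0.10) and Spry2 (-0.16) were not called either. These 7 were named after their values were seen. After quantile normalization, and without tumor 1 of either or both groups, 1 gene of this list was called higher.

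**Figure D4:**
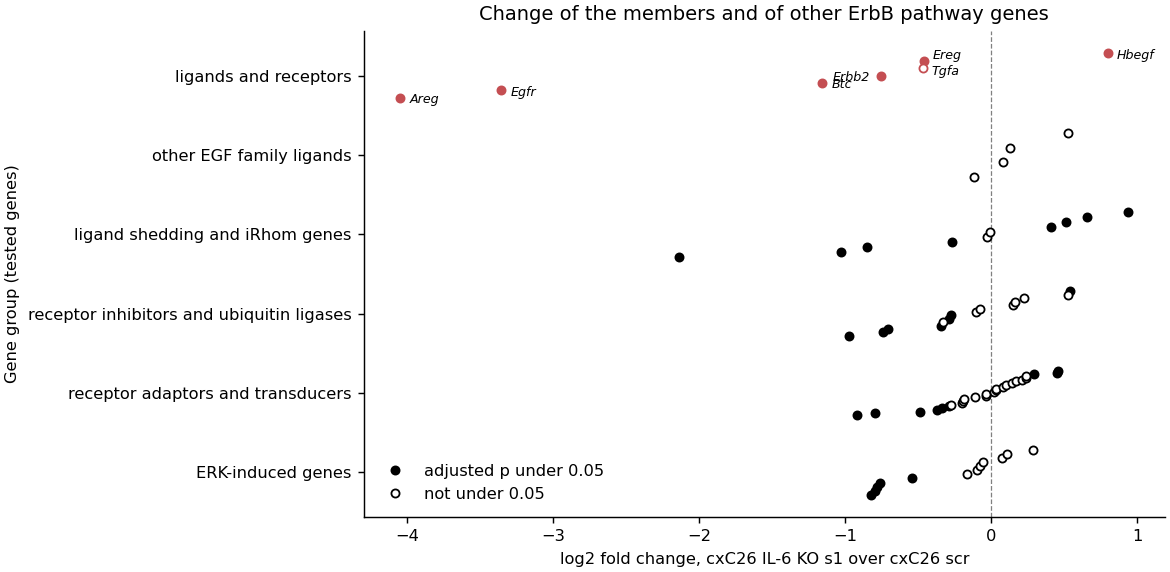
The log2 difference, cxC26 IL-6 KO s1 over cxC26 scr, of the 7 tested members (red) and of the 66 tested genes in 5 pathway lists (black). Filled points had an adjusted p under 0.05 in the limma fit over 13262 genes. The members span -4.04 to 0.80, and the list genes -2.14 (Adam19) to 0.94 (Adam8).

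Markers of other cell types differed between the groups as well, and some of these cells are known sources of the ligands. Macrophages can make Hbegf, and the 7 macrophage markers were all tested and all called higher, beside 19.1% of all tested genes. Their summed level was 699 to 937 CPM in cxC26 scr and 1500 to 2533 CPM in cxC26 IL-6 KO s1. In knockout tumors 1, 2, 3 and 4 the macrophage markers summed to 2533, 1500, 1554 and 1551 CPM. Hbegf stood at 7.61, 7.74, 7.24 and 7.04 log2 CPM in the same tumors. The 5 leukocyte markers were likewise all called higher, at 152 to 181 against 260 to 536 CPM. Their part in the difference of Hbegf was not tested.

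Mast cells, basophils and T cells can make Areg. Of 8 mast cell and basophil markers 5 were tested and all 5 were called higher, beside 19.1% of all tested genes. A marker low in the controls can pass the filter through the knockout tumors alone, so nothing is read from this count. The sum over the 8 was 9.21 to 13.1 CPM in cxC26 scr, 24.4 CPM in knockout tumor 1 and 133 to 143 CPM in the other 3. Ms4a2, which encodes a chain of the mast cell IgE receptor, had no reads in any cxC26 scr tumor. Areg was the lowest in knockout tumor 1, the tumor with the fewest mast cell reads of its group. Across knockout tumors 2, 3 and 4 the marker sums were 133, 137 and 143 CPM. Areg there stood at 4.29, 2.78 and 2.53 log2 CPM, in the opposite order. Among 7 markers of T cells, regulatory T cells and ILC2, 4 were tested, and Cd4 and Cd8a were called higher, beside 19.1% of all tested genes. The mean of the 4 was only 1.93 to 2.74 log2 CPM in cxC26 scr, with Il1rl1 far above it. Cd4, Cd8a or both were therefore low in the controls. Such genes can pass the filter through the knockout tumors alone, so nothing is read from these calls. The other 2 tested, Gata3 and Il1rl1, had log2 differences of -0.41 and -0.05. The sum, set mostly by Il1rl1, was 1959 to 2466 CPM against 1387 to 2463. Fibroblasts can express Ereg and Egfr. Of 7 fibroblast markers 3 were lower (Thy1, Pdgfra and Pdgfrb), 1 was higher (Lum) and 3 were not called, beside 20.7% lower and 19.1% higher of all tested genes. The fibroblast marker sums of 4295 to 6326 against 3343 to 4897 CPM overlapped. Thy1 fell by 2.21 on the log2 scale (limma adjusted p = 9.7e-07). Of the epithelial markers Krt18 rose by 3.20 (limma adjusted p = 3.0e-06) and Cdh1 rose by 1.46 (limma adjusted p = 0.00251). Cdx2, a factor of intestinal identity, was low, with 32, 24, 34 and 17 reads in cxC26 scr and 1, 0, 0 and 0 in cxC26 IL-6 KO s1. It passed the filter through the control tumors alone, and the size of its log2 difference, -5.27, depends on the offset of 0.5 reads. The sum over all 8 epithelial markers, set almost wholly by Krt20, was 1081 to 1291 against 1325 to 1450 CPM. Of the neutrophil markers 1 of 3 tested was higher, beside 19.1% of all tested genes. Of the endothelial, muscle, adipocyte and keratinocyte markers 0 of 13 were called by limma, beside 39.8% of all tested genes, and 0 had an unadjusted p under 0.05. Single tumors differed all the same. Of the keratinocyte markers only Krt10 was tested, and Krt5 had 59 reads in cxC26 scr tumor 1 against 0 to 3 elsewhere. Muscle marker sums ran from 6.24 to 146 CPM in cxC26 scr and from 19.8 to 296 CPM in cxC26 IL-6 KO s1. The part of these markers in the differences of Areg, Ereg and Egfr was not tested.

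**Figure D5:**
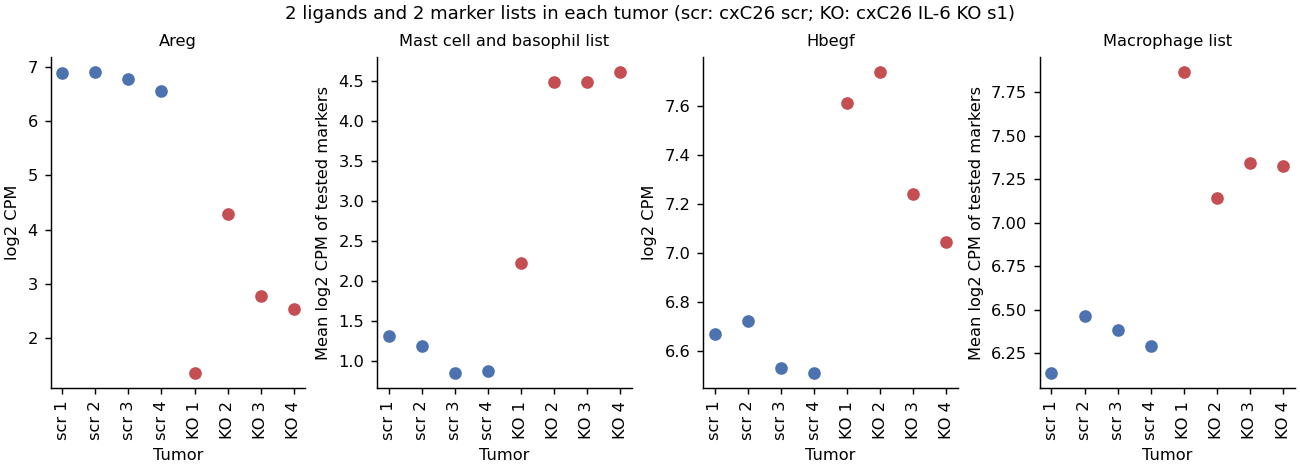
Areg and Hbegf in log2 CPM and the mean log2 CPM of the tested markers of mast cells and basophils (5 genes) and of macrophages (7 genes), 1 point per tumor. Areg lies between 1.35 and 4.29 in the knockout tumors where both marker lists are higher, and knockout tumor 1 is the lowest of its group for the mast cell list, at 2.23, and the highest for macrophages, at 7.86.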

How the data were processed

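RNA was sequenced from 8 tumors, 4 cxC26 scr and 4 cxC26 IL-6 KO s1, grouped by their titles. The authors aligned read pairs, after trimming by Trimmomatic, to mm10 by Hisat2, obtained gene counts from featureCounts and deposited log2 CPM made by limma-voom for 27179 genes. Tool versions, annotation and strand setting of the counting are not given in the sources used here. Reads were recovered by undoing the voom formula, whose offsets are 0.5 and 1 reads, and 100% came out whole within 0.05. A higher total makes the values of low genes more precise.

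Differences were fitted in R 4.3.3 with limma 3.58.1 (lmFit, eBayes with trend) on the deposited log2 values of 13262 genes that reached 1 CPM in 4 or more tumors, with Benjamini-Hochberg adjustment and a threshold of 0.05. Members and lists were chosen with earlier results of these data known. All members are named. Up to 4 called genes of largest difference averaging 3 log2 CPM or more are named per list, with all remaining ligands, all neighbours tested within 500 kb of Areg or Egfr and the 3 likest genes. The ERK-induced genes not called, Adam17 and the remaining called genes of ligand shedding are named as well. Positions are from GENCODE M21 and RefSeq, which placed 12998 of the tested genes. Replicate numbers did not pair the tumors. Alternatives were no or a stricter filter, quantile or median normalization, a replicate block, voom weights, a pseudocount of 1 CPM, coding length, each tumor left out and, chosen after seeing the data, tumor 1 of both groups left out. EGF-like modules of the proteins were not analysed here.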

Additional observations from a re-analysis of the deposited data

Results flagged for a closer look

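Over 42 sets of 4 tumors (a gene or a marker mean in 1 group), the highest or lowest tumor lay apart from the other 3 by more of the whole range than Dixon's 95% critical value in 5, where chance gives about 2.1. Il6 in cxC26 IL-6 KO s1 tumor 3 stood at 2.46 log2 CPM, and the others of its group lay between 1.99 and 2.04. Epgn in the same tumor stood at -1.28 log2 CPM, which is 6 reads against 2 in each of the other 3. The mean of the fibroblast markers was 8.87 log2 CPM in cxC26 scr tumor 1 and 8.44 to 8.50 in the others, and that of the leukocyte markers was 4.63 in the same tumor and 4.82 to 4.85 in the others. The mean of the tested mast cell and basophil markers was 2.23 log2 CPM in cxC26 IL-6 KO s1 tumor 1 and 4.49 to 4.62 in the others.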

How the results depend on the processing

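Of the 9 members with reads, 0 changed direction over 16 alternatives (15 for Tgfa). The members were chosen on this contrast, so nothing is read from their ranges. Areg lay between -4.56 and -3.55 on the log2 scale, Egfr between -3.45 and -3.09 (the last with a pseudocount of 1 CPM), Btc between -1.23 and -1.10, Erbb2 between -0.83 and -0.68, Hbegf between 0.69 and 0.92 and Tgfa between -0.81 and -0.12. Ereg was no longer called in 8 of 16. With each tumor left out in turn, 2023 to 2540 genes were called higher and 2193 to 2674 lower, with 1 member higher and 4 to 5 lower, and 6 to 10 pathway genes higher and 17 to 22 lower. By transcript length with a tumor left out, Areg held 29.1% to 31.1% of the ligand sum in cxC26 scr and 2.19% to 4.72% in cxC26 IL-6 KO s1, and Egfr 32.5% to 34.6% and 6.81% to 7.93% of the receptor sum. By coding length these shares were 8.33% for Areg in cxC26 scr and 51.4% and 14.6% for Egfr in the groups, because coding sequences leave out different parts of each transcript.

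The deviations of same-numbered tumors correlated at -0.06, 0.06, 0.02 and -0.06, so the numbers pair no tumors. With the replicate block 2477 genes were higher and 2688 lower, with 1 and 5 members, 9 and 21 pathway genes and, of the remaining EGF family ligands, 1 higher. No scaling moved the median of all tested genes by more than 0.1. Epgn and Erbb3 were compared only with no filter on low expression and were not called, and Erbb4 had no reads to compare.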
